A study of Mus musculus with 3 samples.

Results

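The Dlx genes are the mouse homologues of the fly gene *Distal-less* and encode homeobox transcription factors. Here they were taken by symbol, *Dlx1* to *Dlx6*, which gave 6 of the 24062 genes counted, and all 6 were found. They lie in the genome as 3 linked pairs, *Dlx1* with *Dlx2*, *Dlx3* with *Dlx4*, and *Dlx5* with *Dlx6*, and the genes of a pair are transcribed towards each other. By sequence they form a pair of paralogue groups, one of *Dlx1*, *Dlx4* and *Dlx6* and the other of *Dlx2*, *Dlx3* and *Dlx5*, so that each linked pair holds a member of each group. The genes of a pair are known to share enhancers and often to be transcribed in the same cells. In the embryonic head, nested Dlx expression in neural crest cells sets the identity of the upper and lower jaw, *Dlx1*, *Dlx2*, *Dlx5* and *Dlx6* act in inhibitory neurons of the ventral forebrain, and *Dlx3* and *Dlx5* act in surface ectoderm and sensory placodes.

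RNA-Seq had been made from the rostrum, the front of the head, of embryos at E9 (embryonic day 9) with 18 to 22 somites. The *tuft* embryos were homozygous for a spontaneous nonsense mutation of *Tet1*, which encodes an enzyme that oxidises methylated cytosine in DNA, and had a neural tube defect, and the WT embryos carried the normal gene. Both genotypes were of the 3H1 Balb strain, in which the mutation arose, and each sample was made from RNA pooled from 3 embryos. GEO lists 2 *tuft* samples, but the counts held 1 *tuft* column, which could be either of them or both together. That column was not assigned to either sample and is treated here as 1 library, so that 1 library stood for each genotype.

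The *tuft* library held 6433067 counts on genes and the WT library 14251942, 2.22 times as many. A count of at least 1 was found for 11795 genes in *tuft* and for 16914 in WT. Levels were expressed as normalised CPM (counts per 1000000 counts on genes, after TMM scaling between the libraries), and folds are *tuft* over WT. Intervals are 95% exact intervals, which cover counting error only, because reads without molecular identifiers are not independent molecules. With 1 library per genotype there was no replicate check and no test, so each difference compares these libraries and not the genotypes. A gene was called higher or lower where its fold was at least 2 in either direction and its interval did not reach 1. A count of 0 was set to a floor of 3 counts for a fold, equal to 0.535 normalised CPM in *tuft* and 0.184 in WT. *Tet1* itself had 32 counts in *tuft* and 435 in WT, a fold of 0.214 (0.145 to 0.307). In RNA from whole tissue, fewer cells of a type and less RNA per cell cannot be told apart.

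The family did not share a direction. With the scaling, floor and rule given above, *Dlx5* with *Dlx6* was the only linked pair with opposite calls. *Dlx2* and *Dlx5* were higher in *tuft*, *Dlx3* and *Dlx6* were lower, and *Dlx1* and *Dlx4*, the scarcest members in WT, had no count in *tuft* and were not called. All 6 had more than 3 counts in at least 1 library and so were among the 15225 genes tested. Of those 15225 genes, 19.6% were called higher in *tuft*, 34.3% lower and 53.8% in either direction, against 2 of 6 Dlx genes higher and 2 of 6 lower. Calls were thus common among genes at large, and a count of 4 of 6 says little about the family by itself. The median log2 fold of all tested genes was -0.29.

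**Figure D1:**
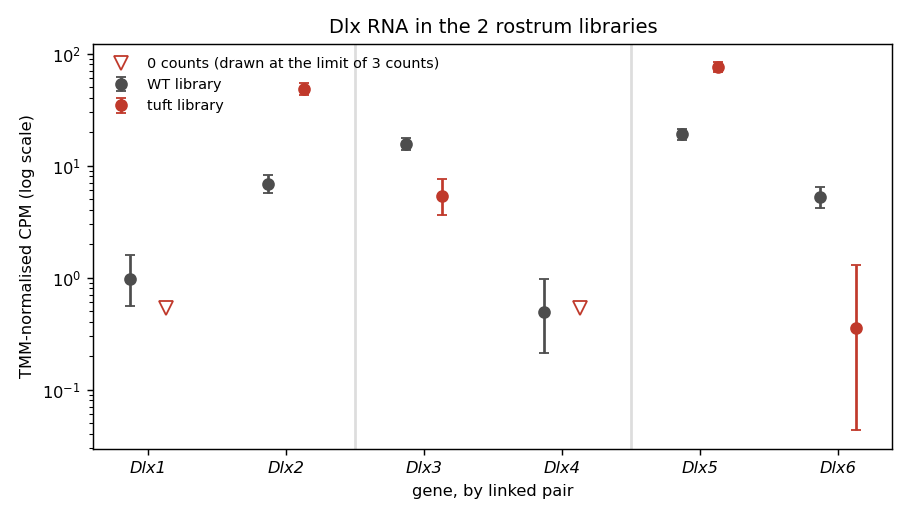
Levels of the 6 Dlx genes in the WT and *tuft* libraries, in normalised CPM on a log axis, with vertical bars for the 95% counting intervals and open triangles, drawn at the floor of 3 counts, for genes with no count. *Dlx2* and *Dlx5* lay above their WT values in *tuft* (48.5 against 6.85 and 75.9 against 19.2), and *Dlx3* and *Dlx6* below them.

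*Dlx5* and *Dlx6* lie 9.83 kb apart on chromosome 6, *Dlx6* at chr6:6863334-6867970 on the plus strand and *Dlx5* at chr6:6877801-6882068 on the minus strand (GRCm38.p6), and together they specify the lower jaw. *Dlx5*, which also marks the anterior border of the neural plate, had 426 counts in *tuft* and 313 in WT. That gave 75.9 normalised CPM (68.9 to 83.5) against 19.2 (17.1 to 21.4), a fold of 3.96 (3.42 to 4.6), and *Dlx5* was called higher. *Dlx6* had 2 counts in *tuft* and 86 in WT, or 0.356 normalised CPM (0.0432 to 1.29) against 5.26 (4.21 to 6.5). Its ratio was 0.0677 with a counting interval of 0.00807 to 0.252, and it was called lower. At its WT level, 29.5 counts of *Dlx6* would have been found at the depth of the *tuft* library. The genes of the pair lay on opposite sides, and their log2 folds of 1.99 and -3.88 differed by 5.87.

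The share of a gene in its pair does not depend on the scaling between libraries. *Dlx5* made up 78.4% of the counts of the pair in WT (74.1 to 82.4) and 99.5% in *tuft* (98.3 to 99.9). In WT there were 3.64 counts of *Dlx5* for each of *Dlx6*, and in *tuft* 213. The odds ratio between the libraries was 58.3, with an exact interval of 15.5 to 493. At the WT share, 92.3 of the 428 *tuft* counts would have been *Dlx6*, where 2 were found.

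*Dlx1* and *Dlx2* lie 9.43 kb apart on chromosome 2, *Dlx1* at chr2:71528113-71533981 on the plus strand and *Dlx2* at chr2:71543408-71546754 on the minus strand, and act together in the ventral forebrain and the upper jaw. *Dlx2* had 272 counts in *tuft* and 112 in WT, or 48.5 normalised CPM (42.9 to 54.6) against 6.85 (5.64 to 8.25). Its fold of 7.07 (5.65 to 8.89) was the highest of the family. *Dlx1* had no count in *tuft* and 16 in WT, where its level was 0.979 normalised CPM (0.56 to 1.59). Set to the floor, *Dlx1* was 1.83-fold lower in *tuft*, which did not reach the 2-fold threshold. The counting interval of its ratio ran from 0 to 0.755. At the WT level, 5.49 counts of *Dlx1* would have been found in *tuft*.

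*Dlx2* took 87.5% of the counts of its pair in WT (80.5 to 92.7) and all 272 in *tuft*, where a count of 0 allows *Dlx1* a share of up to 1.1% (3 counts of the total, the limit used for every count of 0). At the WT share, 34 of those 272 counts would have been *Dlx1*. There were 7 counts of *Dlx2* for each of *Dlx1* in WT, and the exact interval of the odds ratio between the libraries had a lower limit of 9.11. The pair thus differed in composition between the libraries although the fold of *Dlx1* at the floor did not reach the threshold.

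The TET1 enzyme acts on methylated CG dinucleotides, so the start sites of this pair are shown with each CG in capitals. The windows run from 250 bases before a RefSeq transcription start to 50 after it, and 2 of the 6 Dlx genes, *Dlx1* and *Dlx2*, were matched. The *Dlx1* window lies at chr2:71529195-71529494 on the plus strand, inside the *Dlx1* span, and the *Dlx2* window at chr2:71546705-71547004 on the minus strand (GRCm38.p6).
Dlx1: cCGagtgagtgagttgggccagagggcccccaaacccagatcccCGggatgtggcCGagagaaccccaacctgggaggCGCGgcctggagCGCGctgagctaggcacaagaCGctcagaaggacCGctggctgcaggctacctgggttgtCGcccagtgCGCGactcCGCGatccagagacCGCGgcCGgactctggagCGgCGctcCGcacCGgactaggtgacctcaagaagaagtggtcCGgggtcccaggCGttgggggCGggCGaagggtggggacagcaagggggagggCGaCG
Dlx2: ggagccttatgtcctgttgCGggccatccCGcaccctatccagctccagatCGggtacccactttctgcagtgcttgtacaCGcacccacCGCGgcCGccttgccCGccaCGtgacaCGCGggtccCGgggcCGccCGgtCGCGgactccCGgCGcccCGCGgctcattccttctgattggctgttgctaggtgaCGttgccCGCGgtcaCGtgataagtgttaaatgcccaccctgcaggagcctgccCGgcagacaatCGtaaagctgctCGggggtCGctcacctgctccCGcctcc
The *Dlx1* window held 27 CG and the *Dlx2* window 29, against a median of 7 over 32851 windows of the same length. Of all windows, 15.5% held at least as many as *Dlx1* and 12.9% at least as many as *Dlx2*, and 94.6% held at least 1. Both windows were thus rich in CG beside that median. CG reads the same on both strands, and the count says nothing of methylation, which was not measured in these libraries.

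*Dlx3* and *Dlx4* lie 15.2 kb apart on chromosome 11, *Dlx3* at chr11:95120117-95125296 on the plus strand and *Dlx4* at chr11:95140447-95146294 on the minus strand. *Dlx3*, which acts in placenta, skin and hair, had 30 counts in *tuft* and 254 in WT, or 5.35 normalised CPM (3.61 to 7.63) against 15.5 (13.7 to 17.6). Its fold was 0.344 (0.227 to 0.503), 2.91 times lower in *tuft*. *Dlx4* had no count in *tuft* and 8 in WT, or 0.49 normalised CPM (0.211 to 0.965). At that level 2.75 counts would have been found in *tuft*, fewer than the floor, so that no fold could be given. *Dlx3* took 96.9% of the counts of its pair in WT (94.1 to 98.7) and all 30 in *tuft*, where a count of 0 allows *Dlx4* up to 10%. Since 0.916 counts of *Dlx4* would have been found among those 30 at the WT share, a difference in composition was not detectable at this depth.

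**Figure D2:**
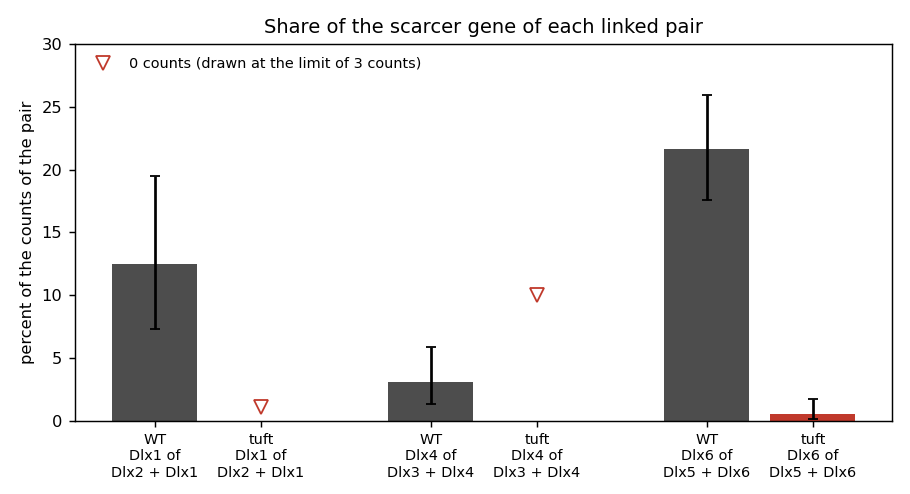
Share of the scarcer gene of each linked pair in the counts of that pair, in percent, for WT and *tuft*, with bars for the share, lines for the 95% exact interval and open triangles at the limit of 3 counts where no count was found. *Dlx6* took 21.6% in WT and 0.467% in *tuft*, *Dlx1* took 12.5% in WT, and the *tuft* limit for *Dlx4* lay above its WT share of 3.05%.

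The members with 2 counts or fewer in *tuft* were those overlapped by another gene. *Dlx1* was overlapped by *Dlx1as* over 57% of its span, *Dlx4* by *Dlx4os* over 21.2%, and *Dlx6* by *Dlx6os1* over 100% and by *Dlx6os2* over 29.2%, while *Dlx2*, *Dlx3* and *Dlx5* overlapped no gene. Reads where counted features overlap can be set aside as ambiguous. The spans above include introns, and the overlap of exons was not computed. Whether strand was used in the counting was not given in the sources used here. *Dlx1*, *Dlx4* and *Dlx6* are therefore uncertain in both libraries, to an extent that is not known. Ambiguous reads were 0.667% of entries in *tuft* and 0.526% in WT. Over all tested genes with a RefSeq span, 35.2% of the 7320 that overlap another gene were called lower and 33.5% of the 7855 that do not, with median log2 folds of -0.33 and -0.23. The part of overlap in the Dlx values was not tested.

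The 4 noncoding RNAs of the Dlx loci all had no count in *tuft*, and none had more than 19 in WT. Of 1250 other genes with 13 to 28 counts in WT, 69.5% were at 0 in *tuft*. *Dlx6os1*, also known as *Evf2*, a noncoding RNA that acts on *Dlx5* and *Dlx6* enhancers, had 19 counts in WT. Set to the floor, *Dlx6os1* was 2.17-fold lower in *tuft*, with an interval of 0 to 0.624 for its ratio, and was called lower. *Dlx1as* and *Dlx6os2* had 2 counts each in WT and were not tested, and *Dlx4os* had 4 and was not called. A start site of *Dlx6os1* lies between *Dlx6* and *Dlx5*, at chr6:6869484-6869783 on the minus strand, and it is shown because it carries 2 copies of TAATTA, a core site of homeodomain proteins, in capitals.
Dlx6os1: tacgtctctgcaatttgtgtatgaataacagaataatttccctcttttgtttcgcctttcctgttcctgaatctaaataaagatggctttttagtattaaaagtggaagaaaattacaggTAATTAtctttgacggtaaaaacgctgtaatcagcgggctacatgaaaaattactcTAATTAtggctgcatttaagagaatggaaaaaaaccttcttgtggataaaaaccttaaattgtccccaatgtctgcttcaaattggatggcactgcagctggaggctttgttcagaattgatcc
TAATTA was sought on both strands, where it reads the same, and 5.29% of the 32851 windows held at least 1 copy and 0.49% of the 32851 held 2 or more. Among the other windows at the Dlx loci, that of a further *Dlx6os1* start, at chr6:6861634-6861933, held 1 copy. Those of *Dlx6os2*, *Dlx4os*, *Dlx1* and *Dlx2* held none. A match is a description of the letters and not a site of binding.

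The 6 genes together had 730 counts in *tuft* and 789 in WT, 130 normalised CPM against 48.3, a fold of 2.69 (2.43 to 2.98). *Dlx2* and *Dlx5* made up 95.6% of those counts in *tuft* and 53.9% in WT. *Dlx2* took 37.3% (33.7 to 40.9) in *tuft* and 14.2% (11.8 to 16.8) in WT, and *Dlx5* took 58.4% (54.7 to 62) and 39.7% (36.2 to 43.2). *Dlx3* took 4.11% (2.79 to 5.81) in *tuft* and 32.2% (28.9 to 35.6) in WT, and *Dlx6* took 0.274% (0.0332 to 0.986) and 10.9% (8.81 to 13.3). *Dlx1* and *Dlx4* made up 2.03% and 1.01% in WT, and a count of 0 allowed each up to 0.411% in *tuft*.

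By linked pair, the summed level of *Dlx1* and *Dlx2* was 6.19 times higher in *tuft* (5 to 7.7) and that of *Dlx5* and *Dlx6* 3.12 times higher (2.72 to 3.59), while that of *Dlx3* and *Dlx4* was 0.333 of WT (0.221 to 0.488). By paralogue group, *Dlx1*, *Dlx4* and *Dlx6* together had 2 counts in *tuft* and 110 in WT, a ratio of 0.0529 (0.00633 to 0.196). *Dlx2*, *Dlx3* and *Dlx5* together had 728 and 679, a fold of 3.12 (2.81 to 3.47). *Dlx6* gave 86 of those 110 WT counts, so that the ratio of the first group is mainly that of *Dlx6*, and in the second group *Dlx3* was lower. The first group also holds the members overlapped by another gene and those with the fewest WT counts. Paralogue group, overlap and low count therefore cannot be told apart here.

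Levels of different genes were compared per kb of exon. In WT the order was *Dlx5* at 13.5 normalised CPM per kb (12 to 15), *Dlx3* at 5.9 (5.19 to 6.67), *Dlx2* at 2.4 (1.98 to 2.89), *Dlx6* at 2.22 (1.77 to 2.74), *Dlx1* at 0.181 (0.104 to 0.295) and *Dlx4* at 0.15 (0.0648 to 0.296). The intervals of *Dlx2* and *Dlx6* overlapped, as did those of *Dlx1* and *Dlx4*, and the other neighbours in that order were apart. In *tuft* the order was *Dlx5* at 53.4 (48.4 to 58.7), *Dlx2* at 17 (15 to 19.1), *Dlx3* at 2.03 (1.37 to 2.89) and *Dlx6* at 0.15 (0.0182 to 0.542), with *Dlx1* and *Dlx4* at 0. *Dlx5* led in both libraries, and *Dlx2* and *Dlx3* changed places.

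How often genes of a like WT count behaved as each member did was counted over the whole table, within 1.5 times of its WT count. Of 1256 such genes for *Dlx1*, 72.9% were at 0 in *tuft*, and of 1133 for *Dlx4*, 80%. A count of 0 in *tuft* was therefore common at the WT level of both. For *Dlx6*, 40% of 1454 genes had 2 counts or fewer in *tuft*, and for *Dlx3*, 31.5% of 2221 had 30 or fewer. For *Dlx6os1*, 69.5% of 1250 were at 0. The high members were rarer among their like, with 4.84% of 1612 genes reaching the 272 *tuft* counts of *Dlx2* and 8.18% of 2468 reaching the 426 of *Dlx5*.

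**Figure D3:**
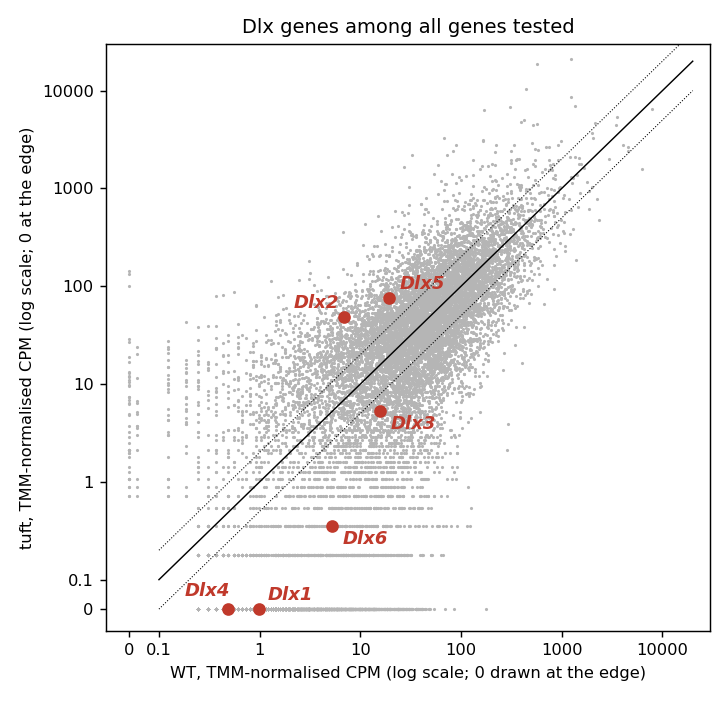
Normalised CPM in *tuft* (vertical) against WT (horizontal), both on log axes with 0 drawn at the edge, for the tested genes (grey points) and the 6 Dlx genes (red), with a solid line at equal levels and dotted lines at 2-fold. *Dlx2* and *Dlx5* lie above the upper 2-fold line, *Dlx3* and *Dlx6* below the lower one, and *Dlx1* and *Dlx4* on the edge at 0 in *tuft* with many other genes.

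Divergence within a pair was set beside other neighbouring genes transcribed towards each other, at most 20 kb apart and with at least 10 counts each over both libraries, a minimum that *Dlx4* with 8 did not reach. There were 1508 such pairs without the Dlx pairs. In 773 of them, 51.3%, both folds lay on the same side of 1, and in 16.4% (248) one gene was called higher and the other lower, as with *Dlx5* and *Dlx6*. In 245, 16.2%, both were called in the same direction. The median difference between the log2 folds of a pair was 2.00, and 5.37% of pairs (81) were at least as far apart as *Dlx5* and *Dlx6*. With every count under 3 raised to 3 in all genes, an alternative chosen after seeing the data, the log2 folds of *Dlx5* and *Dlx6* differed by 5.29 and 7.56% of pairs (114) were at least as far apart. With *Dlx1* at its bound the log2 folds of *Dlx1* and *Dlx2* differed by 3.70, and *Dlx3* and *Dlx4* gave no difference because *Dlx4* had no fold. Opposite calls in a convergent pair were therefore frequent in these libraries, and the gap between *Dlx5* and *Dlx6* was among the wider ones.

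**Figure D4:**
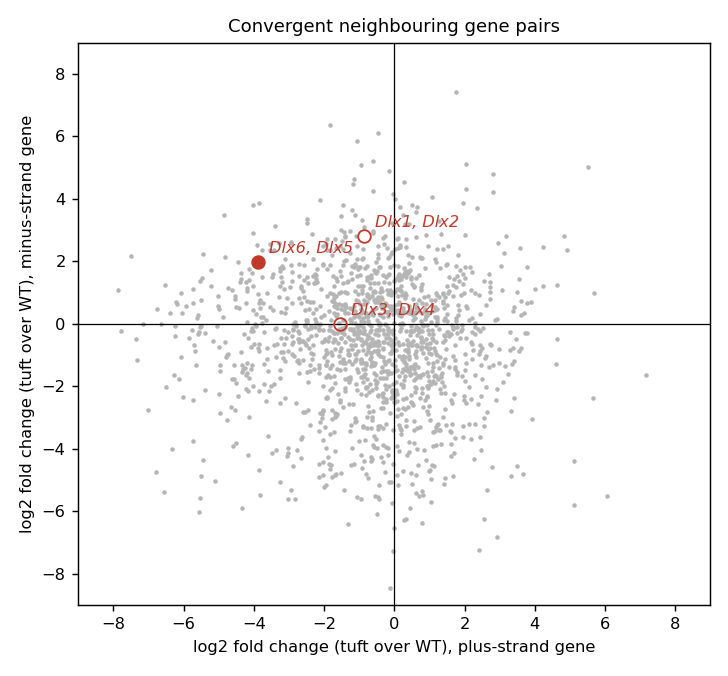
Log2 fold of the minus-strand gene (vertical) against that of the plus-strand gene (horizontal) in each of 1508 convergent neighbouring pairs (grey) and the 3 Dlx pairs (red), open where 1 gene of the pair had no count in *tuft*, with *Dlx1* drawn at its bound and *Dlx4*, which had no fold, at 0. *Dlx6* with *Dlx5* lies in the upper left, at -3.88 and 1.99, among other pairs of opposite sign, and the grey points lie on all sides of the origin.

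Around the pairs, 16 of the 18 nearest genes, 3 on each side of each pair, could be tested, with 3 called higher and 4 lower, beside 19.6% and 34.3% of all tested genes. Beside *Dlx1* and *Dlx2* none of 5 was called, the nearest being *Metap1d* with a fold of 1.74 (1.29 to 2.33). *Hat1*, at 1.98 (1.84 to 2.12), lay just under the threshold and was called higher with median-of-ratios scaling (log2 1.03). Beside *Dlx3* and *Dlx4* 2 of 5 were higher, *Samd14* at 2.27 and *Pdk2* at 3.9, whereas *Dlx3* was lower. Beside *Dlx5* and *Dlx6*, *Slc25a13*, 646 kb away, was higher at 2.45 and 4 of 6 were lower. *Acn9*, 73.9 kb away on the *Dlx5* side, had no count in *tuft* and 141 in WT. The other genes called lower lay farther off, *Tac1* at 673 kb, *Asns* at 793 kb and *Dync1i1* at 835 kb. *Dync1i1* had no count in *tuft* and 42 in WT, *Tac1* none and 20, and *Asns* 197 against 1870, a fold of 0.307. Of 1250 other genes with 13 to 28 counts in WT, a range that holds *Tac1*, 69.5% were at 0 in *tuft*. *Shfm1* had a log2 fold of -0.83 and was called lower with library totals alone (-1.22). None of the tested neighbours of *Dlx3* was called lower with it.

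More of the genes known to act upstream of Dlx genes in the facial primordia were higher than lower. Of 14 tested, 6 were higher and 3 lower, beside 19.6% and 34.3% of all tested genes, with a median log2 fold of 0.85 beside -0.29. *Edn1*, the endothelin that induces *Dlx5* and *Dlx6* in the lower jaw, had 144 counts in *tuft* and 99 in WT, a fold of 4.24 (3.26 to 5.53). *Mef2c*, a transcription factor of the same route, had a fold of 3.7 (2.91 to 4.72). Lower were *Notch2*, a receptor that opposes the lower jaw fate, at 0.211 (0.178 to 0.249), and *Plcb4*, a phospholipase that relays endothelin signals, at 0.366 (0.218 to 0.585).

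Of 18 jaw patterning genes that act downstream of or beside *Dlx5* and *Dlx6*, 4 were higher and 5 lower, near the 19.6% and 34.3% of all tested genes, with a median of -0.26 beside -0.29. *Pitx1*, of the mandibular arch, had a fold of 3.22 (2.79 to 3.7), and *Nr2f1*, a nuclear receptor of the upper jaw, 2.8 (2.6 to 3.01). *Lhx8* and *Barx1*, named after their values were seen, had larger folds at lower counts, and both were called higher. *Lhx8* had 39 counts in *tuft* and 5 in WT, a fold of 22.7 (8.95 to 73.8). *Barx1* had 27 and 6, a fold of 13.1 (5.3 to 38.8). *Hand1*, a lower jaw target of *Dlx5* and *Dlx6*, had no count in *tuft* and 118 in WT. Set to the floor, *Hand1* was 13.5-fold lower, with an interval of 0 to 0.0925 for its ratio. *Pou3f3*, an upper jaw gene, had a fold of 0.194 (0.0912 to 0.367). 6 of the 18 were at 0 in *tuft*, *Hand1*, *Hand2*, *Gsc*, *Gbx2*, *Runx2* and *Lhx6*. *Gsc*, *Gbx2* and *Lhx6* had 14, 17 and 11 counts in WT, *Runx2* had 5 and *Hand2* 59. Zeros were common at the lower of these levels and less so at the level of *Hand1*. Of 1256 other genes with 11 to 24 counts in WT, 72.9% were at 0 in *tuft*. For 1454 genes with 58 to 129 counts the share was 32%, and for 1612 with 75 to 168 counts, a range around *Hand1*, 26%. *Runx2* lay below these ranges.

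Of 11 ventral forebrain genes that act with *Dlx1* and *Dlx2*, 9 could be tested, and 6 were higher and 2 lower, against the same 19.6% and 34.3%, with a median of 1.26. *Nkx2-1*, which specifies the medial ganglionic eminence and hypothalamus, had 766 counts in *tuft* and 295 in WT, a fold of 7.56 (6.6 to 8.68). *Sp8*, among the lowest folds of members with at least 100 counts, was also called higher, at 2.64 (2.35 to 2.96). The 2 called lower, named after their values were seen, were *Gad2*, which makes the transmitter GABA, with 1 count against 65, a ratio of 0.0448 (0.00112 to 0.259), and *Isl1* at 0.416. The median of this list was the highest of the 4 lists.

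Of 14 surface ectoderm and placode genes that act with *Dlx3*, *Dlx5* and *Dlx6*, 4 were higher and 2 lower, against 19.6% and 34.3%, with a median of 0.16. *Gata3*, a zinc finger factor of early ectoderm, had a fold of 5.01 (3.62 to 6.99). *Eya1*, a transcriptional cofactor of placodes, had 10 counts against 428, a fold of 0.068 (0.0324 to 0.126), and *Eya2* a fold of 0.487 (0.403 to 0.585).

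**Figure D5:**
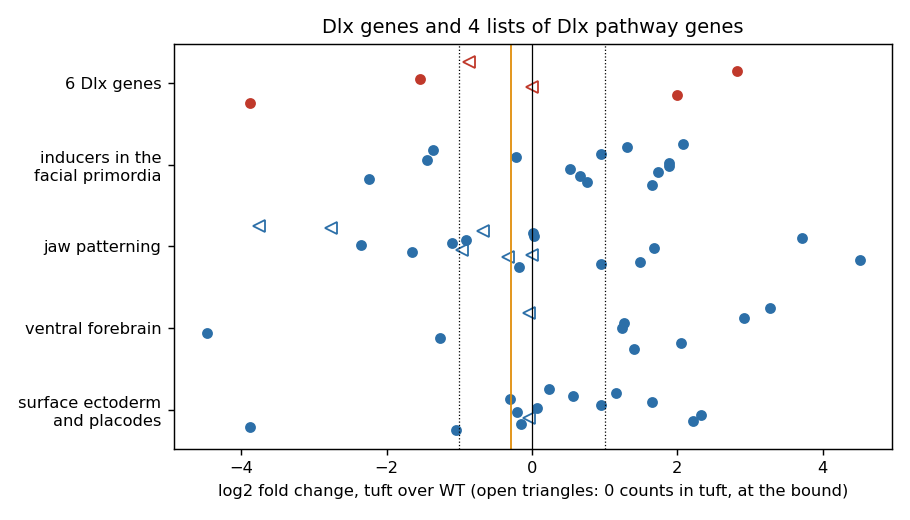
Log2 folds (horizontal) of the 6 Dlx genes (red) and of the tested genes of the 4 pathway lists (blue), 1 point per gene, with open triangles for genes at 0 in *tuft* drawn at the bound, or at 0 where there was no fold, dotted lines at 2-fold and an orange line at the median of all tested genes, -0.29. The medians of the lists, which are not drawn, were 0.85 for the inducers, -0.26 for the jaw genes, 1.26 for the ventral forebrain genes and 0.16 for the ectoderm and placode genes.

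The tissue in the libraries was checked with marker genes. Of all tested genes, 19.6% were called higher and 34.3% lower, and the counts of calls below stand beside those shares. The counts for anterior neural and for crest markers were near them. Anterior neural markers were present, with a summed level of 582 normalised CPM in *tuft* and 506 in WT, 1 of 8 higher and 2 lower, and *Hesx1* at 0 in *tuft*. Neural crest and head mesenchyme markers summed to 385 and 205, with 2 of 9 higher, 3 lower, a median log2 fold of -0.80, and *Foxd3* and *Prrx2* at 0 in *tuft*. *Sox10*, named after its values were seen, made up 228 and 20.4 of those sums, and the other 8 markers summed to 158 in *tuft* and 184 in WT. Surface ectoderm markers summed to 318 and 334, with 3 of 5 lower and a median of -2.10. Yolk sac markers summed to 327 in *tuft* and 2033 in WT, with 8 of 10 lower, 1 higher, and *Apoa4* and *Apoc2* at 0 in *tuft*. Of 8 hindbrain and posterior arch markers, *Hoxa2*, *Hoxb1*, *Hoxb2*, *Hoxa3*, *Hoxb3* and *Hoxd4* were at 0 in *tuft* and *Hoxa2* and *Hoxd4* in WT. The 5 of them that could be tested gave 2 higher and none lower, and the summed level was 30.3 against 4.35. Dlx genes are expressed in crest, ectoderm and forebrain, and the part of these tissue differences in the Dlx values was not tested. *Cecr2*, a chromatin remodelling gene whose loss causes neural tube defects, had 126 counts in *tuft* and 2025 in WT, a fold of 0.181 (0.15 to 0.217).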

How the data were processed

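The authors deposited raw counts per gene, 1 column per genotype, with no header. Per the labels and the methods, reads were aligned to mm10 with TopHat2 2.0.14 and Bowtie2 2.2.5 and counted with HTSeq, and the notes also name SAMtools 0.1.18 and Cufflinks 2.1.1; the strand setting was not given in the sources used here. The 5 summary lines of each column were left out of library sizes: entries not unique were 59.2% of all entries in *tuft* and 51.4% in WT, and entries on no gene 12.8% and 10.8%.

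TMM factors (edgeR 4.0.16, R 4.3.3; *tuft* over WT 0.761) were computed over all genes, and folds, Clopper-Pearson intervals and shares with Python 3.11.15, numpy 2.4.6, scipy 1.17.1 and pandas 2.3.3; the script was tested on simulated data. The quasi-likelihood test of edgeR could not be fitted to single libraries, and the simulation-based test of the study was not used, so there are no p-values. Tested genes had more than 3 counts in at least 1 library. A count of 0 was set to 3 counts; where that bound crossed 1 it was set to 1, a choice made after the data were seen. Gene spans and windows came from RefSeq GRCm38.p6, the build of mm10, and strand, exon and transcript lengths from GENCODE vM1.

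Named genes were the Dlx genes and their antisense RNAs, *Tet1*, *Cecr2*, the 2 highest and 2 lowest folds of each pathway list among members with at least 100 counts over both libraries, and marker genes at 0; genes beside the pairs were named for their position. Some genes under this rule are not reported here. Members and lists were chosen with earlier results of these data known.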

Additional observations from a re-analysis of the deposited data

How the results depend on the processing

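The 5 Dlx genes with a fold kept its direction under library totals alone, upper quartile and median-of-ratios scaling, TMM over genes with at least 10 counts, and 0.5 added to every count. *Dlx1* was called lower with library totals alone (log2 -1.27) and with 0.5 added (-3.50). Under those settings *Dlx1* and *Dlx2* also had opposite calls. *Dlx4* was not called under any scaling, with a log2 fold of -0.27 under library totals alone and -2.55 with 0.5 added. At a 4-fold threshold 2 Dlx genes were called, 1 higher and 1 lower, and with the whole interval past 2-fold 2 were called higher and 1 lower. The 4-fold threshold left 1301 of all tested genes higher and 3091 lower, and the whole interval 2442 and 4172, against 2983 and 5215. Library totals alone shifted all log2 folds by -0.39 and moved the lower share of called genes from 63.6% to 74.2%. *Itga6* changed sign under median-of-ratios scaling (0.02) and *Pdk1* under library totals alone (-0.01). A call was gained for *Hat1* (1.03) under median-of-ratios scaling and *Shfm1* (-1.22) under library totals alone. The call was lost for *Samd14* (0.79) and *Slc25a13* (0.90) under library totals alone and for *Eya2* (-0.99) under median-of-ratios scaling. Per kb of exon, *Dlx2* took 93% of its pair in WT and *Dlx5* 85.9%, or 85% per kb of the longest coding transcript, an alternative chosen after seeing the data. With at least 100 counts, 48.3% of convergent pairs lay on the same side of 1.

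No library was left out, and no paired analysis was possible because each genotype had 1 column of counts. Depth limited *Dlx4*, of which 2.75 counts would have been found in *tuft* at its WT level.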
